A study of Mus musculus with 4 samples.

Results

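Dendritic cells are bone marrow-derived antigen-presenting cells that take up antigen, load its peptides onto MHC class I and class II molecules and show them to T cells. Conventional dendritic cells arise from FLT3-dependent progenitors. In the mouse spleen they fall into type 1 cells (cDC1), which depend on BATF3 and IRF8 and present captured antigen on MHC class I to CD8 T cells, and type 2 cells (cDC2), which present mainly on MHC class II to CD4 T cells. Plasmacytoid cells (pDC) produce type I interferon, and dendritic cells of any type that mature switch on *Ccr7* and migrate toward T cell areas.

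Of 16261 barcodes with at least 1000 detected genes and at most 10% mitochondrial UMIs (unique molecular identifiers, which count captured transcripts), 389 were dendritic cells by a rule on transcripts. The rule asked for at least 20 UMIs per 10000 from the 4 MHC class II genes *H2-Aa*, *H2-Ab1*, *H2-Eb1* and *Cd74*, a UMI of at least 2 of 6 dendritic genes (*Flt3*, *Itgax*, *Zbtb46*, *Cd209a*, *Xcr1* and *Ccr7*), no UMI of the B cell gene *Cd79a* and at most 1 UMI of the macrophage gene *C1qa*. These measured values chose the cells, so they are described below and support nothing else.

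The study asked how a mammary tumor changes blood-forming progenitors in the marrow and the spleen. Each of the 4 groups was 1 droplet library (10x Genomics 3′, version 3.1) from C57BL/6J mice aged 8 to 16 weeks: bone marrow of control (CBM) or tumor-bearing mice (TBM), and spleen of control (CS) or tumor-bearing mice (TS). Tumors came from PyMT-B6, a line derived from mammary tumors that expressed the polyoma middle T antigen under the mammary MMTV promoter, so the tumor is 1 transplanted line. The suspensions were digested with collagenase IV and DNase I, depleted of lineage-positive cells, sorted and mixed again at equal ratios. The sort took CD45+ c-Kit+ cells, with or without Sca-1, and CD45− cells defined by CD31 and CD51. All 4 groups share this preparation, which is a gate for progenitors and stroma and not for dendritic cells: a share of cells here is a share of the sorted mixture, not of the organ, and lineage-positive or c-Kit-negative dendritic cells fall outside its gates. The number of mice per library was not given in the sources used here. With 1 library per group there is no replicate check on any difference between groups, no test was possible and no p-value is given. The 95% intervals below are exact and cover counting error only, within these libraries.

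Control spleen held most of the dendritic cells. They were 344 of 3236 barcodes in CS (10.6%, 95% exact binomial interval 9.59 to 11.7), against 31 of 5188 in TS (0.598%, 0.406 to 0.847). Marrow held 9 of 3497 in CBM (0.257%, 0.118 to 0.488) and 5 of 4340 in TBM (0.115%, 0.0374 to 0.269). CS thus supplied 88.4% of all dendritic cells, and the CS and TS shares do not overlap within counting error. The marrow intervals do overlap. With every cell thinned to 2000 UMIs before the rule was applied, the shares were 4.58% in CS and 0.368% in TS, and the order of the marrow libraries reversed, on 1 cell in CBM (0.0288%) and 3 in TBM (0.0698%).

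**Figure D1:**
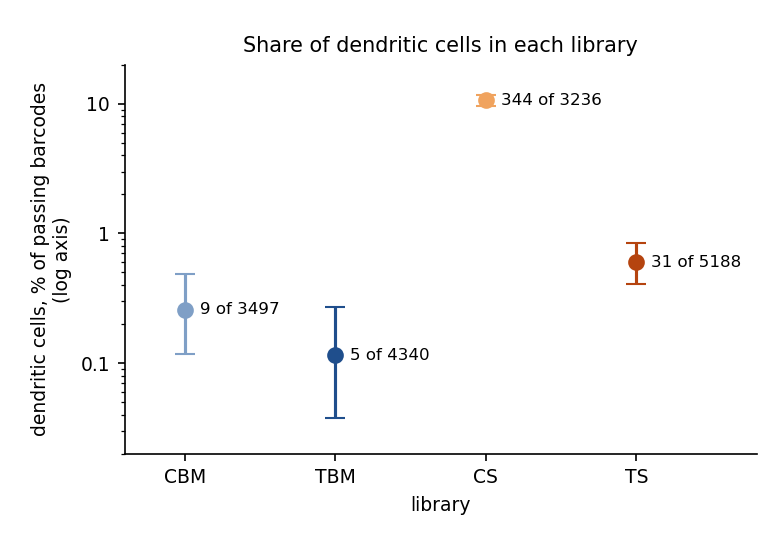
Share of barcodes that were dendritic cells by the rule in each library, in percent on a logarithmic vertical axis, with 95% exact binomial intervals as bars and the number of dendritic cells of all barcodes beside each point. CS stands at 10.6% and the other 3 libraries are each below 1%.

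Dendritic cells in TS were also shallower. Their median was 13458 UMIs and 3334 genes in TS against 23661.5 UMIs and 4521 genes in CS, while the other barcodes of the 2 spleen libraries were alike, at medians of 26974 and 27088.5 UMIs. The marrow dendritic cells had medians of 18087 (CBM) and 22817 (TBM) UMIs. Summed over its dendritic cells each library gave 8589963 UMIs in CS, 469312 in TS, 151798 in CBM and 96163 in TBM, which sets the precision of the levels below, given as CPM, the UMIs of a gene scaled to a common total of those sums. Between 2 and 9 barcodes were shared by any pair of libraries, and none of them was a dendritic cell. Doublets were not removed.

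The genes used by the rule showed how the cells were chosen. *Flt3*, the receptor of the dendritic growth factor, stood at 215 CPM in CS and 183 in TS, beside 132 (CBM) and 239 (TBM) in marrow. *Xcr1*, a chemokine receptor carried by cDC1, was at 511 CPM in CS and 407 in TS, with a UMI in 300 of 344 and 23 of 31 cells, against 6.59 CPM in CBM and 0 in TBM. *Cd209a*, a lectin found on cDC2 and monocyte-derived cells, showed the opposite order, at 98.8 (CBM) and 62.4 (TBM) CPM in marrow, 3.84 in CS and 0 in TS. *Ccr7* was at 29.6 CPM in CS (30 cells) and 141 in TS (6 cells). *H2-Aa*, which encodes an MHC class II chain, was at 6399 CPM in CS and 5794 in TS, and lower in marrow, at 3235 (CBM) and 2371 (TBM). In CS, *H2-Aa* was at 30.8 CPM in the other barcodes and at 541 CPM in free RNA, measured in barcodes of at most 100 UMIs. Free RNA in TS held 23.01 CPM.

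The class II threshold cut through a thin tail in CS and a gap in TS. The 3 CS cells nearest to it held 21.1, 24.0 and 24.6 class II UMIs per 10000, and the 3 barcodes just outside held 19.4, 18.9 and 18.0. In TS the nearest cells held 64.2, 87.6 and 97.2, and the nearest outside 19.8, 7.69 and 5.05. The medians of the chosen cells were 328 in CS, 321 in TS, 119 in CBM and 56.5 in TBM. Of the barcodes that failed a single criterion in CS, 59 failed the class II minimum, 30 the dendritic genes, 4 *Cd79a* and 6 *C1qa*.

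Each cell was next assigned to the cell type of which it held the most markers, out of 8 per type and at least 3, each above its level in free RNA, and a cell with a tie between types was left unclassed. None of these markers was used by the rule, but they were read in the same cells, so the classes are a description. In CS, 302 of 344 cells (87.8%, 83.9 to 91.1) were cDC1-like, 12 (3.49%) resembled mature dendritic cells, 5 cDC2, 2 pDC and 3 monocytes (0.872%), and 17 (4.94%) reached no class. A further 1 CS cell each fell in the progenitor class, the T, NK or ILC class and the megakaryocyte class. In TS, 23 of 31 (74.2%, 55.4 to 88.1) were cDC1-like and 4 (12.9%, 3.63 to 29.8) mature. The other TS cells were 1 each in the progenitor class, the monocyte class and the T, NK or ILC class, and 1 with no class. The interval of the mature share in TS overlaps that in CS. At an equal depth of 2000 UMIs per cell the cDC1 class held 50.6% of the CS cells and 53.3% of the TS cells, and 43.9% and 30.0% reached no class, so the order of the 2 spleens in the cDC1 share depends on depth. The label held for the spleen libraries, and more narrowly than it reads: these were largely cDC1. The rule counts *Xcr1*, a gene of cDC1, and the sort limits which types could be found, so this is no share of types in the spleen. In marrow it held in part. Of the 9 CBM cells 6 were cDC1-like and 3 monocyte-like, and of the 5 TBM cells 2 were monocyte-like and 3 reached no class, so that no TBM cell was assigned to a dendritic class, although 2 of them held at least 3 cDC1 markers and 1 held at least 3 pDC markers. At least 3 progenitor markers were held by 2 TBM cells and at least 3 megakaryocyte markers by 1. Progenitor markers summed to 655 CPM in TBM and 224 in CBM, below free RNA at 763 and 879 CPM.

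**Figure D2:**
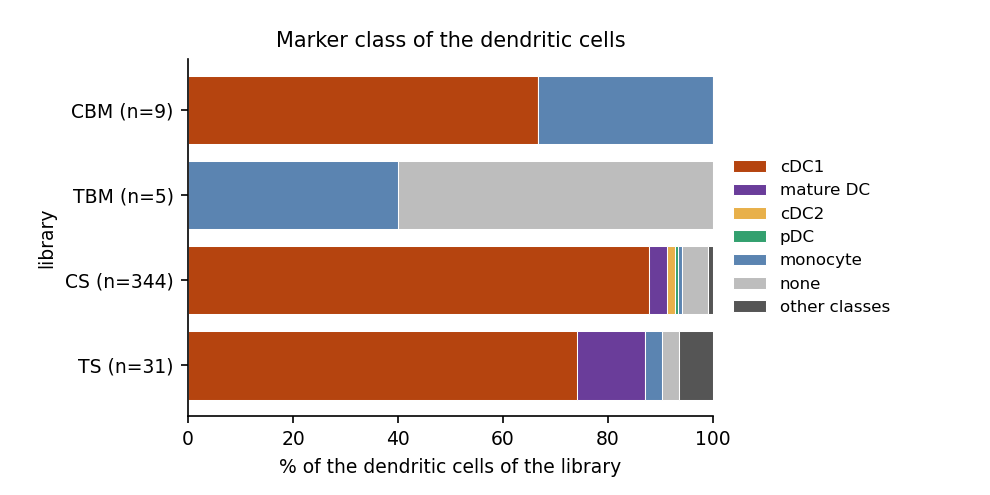
Share of the dendritic cells of each library in each marker class, in percent. The cDC1 class holds 87.8% of the CS cells and 74.2% of the TS cells, while the TBM bar holds monocyte-like and unclassed cells alone.

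The 8 cDC1 markers summed to 1981 CPM in CS and 2052 in TS, against 29.4 and 16.6 CPM in the other barcodes of those libraries. The marrow cells stood between, at 909 CPM in CBM and 593 in TBM. Cells held a median of 7 of the 8 markers in CS and 6 in TS. *Clec9a* (chromosome 6, 129408862 to 129424763, plus strand, GRCm38), the receptor by which cDC1 recognise dead cells, stood at 281 CPM in CS, 307 in TS, 98.8 in CBM and 72.8 in TBM. *Cadm1* (chromosome 9, 47530173 to 47857637, plus strand), an adhesion molecule of cDC1, was at 245 CPM in CS and 249 in TS and had no UMI in either marrow library. *Batf3* and *Irf8*, transcription factors needed for cDC1, were at 251 and 1968 CPM in CS, and *Id2*, which holds back the pDC and B cell programs, was at 1120. cDC2 markers summed to 161 CPM in CS and 117 in TS, and pDC markers to 155 and 139, with 2 of the 8 pDC markers at 0 in CS and 3 in TS. *Ccr9*, a gut-homing receptor in the pDC list, was 1 of 2 pDC markers above the minimum level of 50 CPM and was past 2-fold between the spleens, at 85.8 CPM in CS and 40.5 in TS (log2 ratio −1.08, −1.82 to −0.43).

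Markers of other blood cells were mostly low, though some lists stood above the other barcodes of their library. B lineage markers summed to 47.0 CPM in CS (3 of 8 at 0) and 68.2 in TS (5 of 8 at 0), above the 12.8 and 16.5 CPM of the other barcodes. Macrophage markers summed to 22.8 and 23.4 CPM, below the 30.7 and 29.1 CPM there. Neutrophil lineage markers summed to 143 CPM in CS and 458 in TS, below the 1922 and 2297 CPM of free RNA. Of that list *Mpo* and *Prtn3* were compared between the spleens and both were higher in TS (log2 ratios of 2.13 and 2.12), but 1 TS cell held 71 of the 83 *Mpo* UMIs and 98 of the 114 *Prtn3* UMIs. Erythroid markers summed to 215 CPM in CS and 168 in TS, below free RNA at 9789 and 4978. Progenitor markers summed to 258 and 245 CPM, against 1237 and 855 in the other barcodes. The T, NK or ILC markers, of which 1 of 8 was at 0 in CS and 2 in TS, summed to 34.0 and 119 CPM. The basophil or mast, megakaryocyte, and endothelial or stromal lists each summed to between 12.8 and 68.2 CPM in both spleens. Of these only the endothelial or stromal list stood above the other barcodes, at 35.9 against 30.4 CPM in CS and 68.2 against 27.7 in TS. Monocyte markers summed to 283 CPM in CS and 373 in TS, against 188 and 86.9 in the other barcodes and 315 and 131 in free RNA. The monocyte list split, since *S100a4* was higher in TS (320 against 155 CPM, log2 ratio 1.04, 0.79 to 1.28) and *Ccr2* lower. The part of these transcripts in the spleen comparison below was not tested.

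Beyond the fixed marker lists, 40 genes were listed for the highest ratio of CS dendritic cells over the other CS barcodes. They were chosen after their values were seen, in the cells that the rule had picked. *Dnase1l3*, a secreted nuclease that digests DNA in apoptotic debris (chromosome 14, 7964533 to 7994573, minus strand), stood at 615 CPM in CS and 773 in TS, with a UMI in 291 of 344 and 28 of 31 cells, and had none in the marrow cells. *Cxcl9*, a chemokine that attracts CXCR3-bearing T cells, *Cd8a*, the CD8 alpha chain carried by splenic cDC1, and *Apol7c*, an apolipoprotein L family gene, were in the same list and had no UMI in the marrow cells either. *Ciita*, the master regulator of class II genes, stood at 490 CPM in CS and 439 in TS. *Tlr3*, the endosomal sensor of double-stranded RNA, was at 169 CPM in CS and 107 in TS.

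The mature class differed from the cDC1 class by many genes outside its markers. In CS the cDC1 class summed to 8059082 UMIs over 302 cells and the mature class to 120727 over 12, so counting error in the mature class is wider, and a difference between classes is a description because the same cells were sorted by their genes. *Fscn1*, an actin-bundling protein and one of the class's markers, had UMIs in all 12 mature CS cells and all 4 mature TS cells, against 4 of 302 cDC1-class cells in CS. *Ccr7*, through which a cell could meet the rule, was at 1483 CPM in the mature class and 2.23 CPM in the cDC1 class.

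*Relb*, an NF-kB subunit, was at 803 CPM in the mature class and 28.04 in the cDC1 class (log2 ratio 4.84, 95% interval 4.48 to 5.19). *Nfkbia*, an inhibitor that NF-kB switches on, was at 1416 against 285 CPM (2.31, 2.08 to 2.54), and *Birc3*, a survival gene of the same pathway, at 389 against 68.7 (2.50). The inflammatory cytokine *Il1b* and the chemokine *Ccl4* in the same list went the other way, at −2.52 (−5.57 to −0.67) and −2.06 (−3.94 to −0.70), on 2 and 4 UMIs in the mature class. Some costimulatory genes were likewise higher in the mature class: *Icosl*, the ligand of ICOS, by 4.03 (3.56 to 4.48), *Cd83*, which stabilises surface MHC class II, by 2.65 (2.20 to 3.08), and *Cd40* by 2.60 (1.84 to 3.28). *Cd274*, which encodes PD-L1, was at 82.8 CPM against 7.20. *Cd86*, another costimulatory ligand, went the other way, at 74.5 CPM against 164 (log2 ratio −1.14, −2.27 to −0.21), and *Havcr2*, which encodes the checkpoint receptor TIM-3, had no UMI in the mature class against 198 CPM.

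Genes of class II loading and the lysosome were divided between the classes. Lower in the mature class were *H2-DMa*, part of the peptide exchanger of class II, at 66.3 CPM against 553 (log2 ratio −3.06, −4.27 to −2.08), and *Ciita*, at 199 against 493 (−1.31, −1.95 to −0.73). Higher were *Cd83*, *Ifi30*, a lysosomal thiol reductase, at 977 against 430 CPM (1.19, 0.91 to 1.45), and *Lgmn*, a lysosomal protease, at 141 against 15.6 (3.17, 2.35 to 3.91). *Ctss* and *H2-Oa* lay within 2-fold, at 0.54 and 0.92. Also lower were *H2-DMb1* (−2.55, −3.68 to −1.62) and *H2-Ob* (−3.97, −9.27 to −1.49, on 1 UMI in the mature class). *March1* had no UMI in the mature class against 170 CPM. Also higher were *H2-DMb2* (1.06, 0.29 to 1.73) and, on 3 UMIs, *Ctsl* (1.48, −0.84 to 3.08). *Mki67*, a gene of dividing cells, had no UMI in the 12 mature cells and stood at 416 CPM in the cDC1 class. With a floor of 3 counts over the mature class it was 16.7-fold lower there (log2 ratio −4.07, upper limit −3.77).

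**Figure D3:**
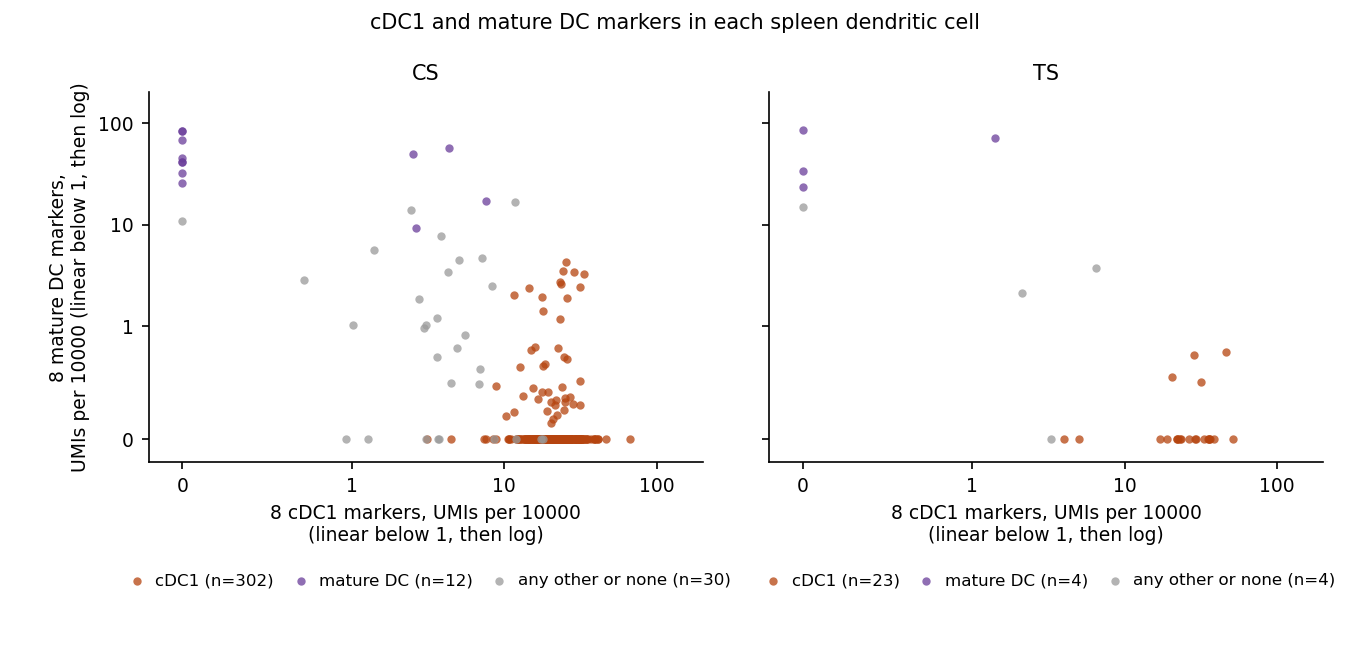
Summed cDC1 markers (horizontal axis) against summed mature markers (vertical axis) in each dendritic cell of CS and TS, in UMIs per 10000 on axes that are linear below 1 and logarithmic above, with 1 point per cell colored by marker class. The 12 mature CS cells and 4 mature TS cells lie high on the mature axis, most of them with no cDC1 marker, apart from the cDC1 class.

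Chemokines were uneven among the mature cells. *Ccl5*, which attracts T cells and monocytes, was at 4523 CPM in the mature class of CS and 9.93 in the cDC1 class, with a UMI in 10 of 12 mature cells, but 1 cell held 67.4% of them. *Ccl22*, a ligand of CCR4 on regulatory T cells, had 21 UMIs in the TS mature cells, 19 of them in 1 cell. *Cxcl16* was spread more widely, at 1118 CPM against 80.8 (log2 ratio 3.79, 3.51 to 4.06). In the 4 mature TS cells *Ccr7* was at 2067 CPM, *Fscn1* at 1624 and *Il4i1*, an amino acid oxidase, at 1071.

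Tumor-bearing and control spleen were then compared gene by gene, over the dendritic cells found in each sorted mixture. Of 2888 genes whose levels averaged 50 CPM or more across the spleens, without the 12 genes of the rule, 47 were at least 2-fold higher in TS (1.63%) and 32 at least 2-fold lower (1.11%). The median gene stood at a log2 ratio of −0.01. Most genes thus lay within 2-fold, and the genes named next are those at the ends under a minimum of 100 CPM, 10 cells with a UMI and at most 25% of the UMIs in 1 cell of the higher library.

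*Itgae* (chromosome 11, 73090583 to 73147446, plus strand) had the highest ratio. It encodes CD103, an integrin that binds E-cadherin and is carried by part of the cDC1. It was at 352 CPM in TS and 48.8 CPM in CS, a 7.21-fold difference (log2 ratio 2.85, 2.58 to 3.11), with a UMI in 16 of 31 TS cells and 125 of 344 CS cells. Since the TS cells were shallower, each cell was also thinned to 2000 UMIs: *Itgae* was then found in 11 of 30 TS cells (36.7%, 19.9 to 56.1) and 29 of 344 CS cells (8.43%, 5.72 to 11.9), and in none of 459 erythroid barcodes of CS. Without thinning, at a median of 62940 UMIs, 3 of 460 erythroid barcodes of CS had an *Itgae* UMI. No TS cell held over 13.9% of the UMIs. Within the cDC1 class, a comparison added after seeing the data and a class for which *Itgae* is itself 1 of 8 markers, the difference was as large, at 416 against 51.9 CPM (log2 ratio 3.004, 2.73 to 3.27), and the mature class had no *Itgae* UMI in either library. In the other barcodes the ratio was −1.23. *Itgae* was the single member of the 8 cDC1 markers past 2-fold, and the list's median was −0.09, with *Clec9a* at 0.12 (−0.13 to 0.37) and *Cadm1* at 0.03 (−0.26 to 0.30).

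*Apol7c* (chromosome 15, 77524852 to 77533316, minus strand) had the lowest ratio. It was at 141 CPM in TS and 768 in CS, 5.46-fold lower (log2 ratio −2.45, −2.82 to −2.10), with a UMI in 10 of 31 and 214 of 344 cells. Within the cDC1 class it was lower still, at 68.1 against 763 CPM (−3.49, −4.09 to −2.94). In the mature class it was at 1255 CPM in TS and 3007 in CS. The other barcodes of the 2 libraries differed in the same direction, by −3.55, at far lower levels (0.273 CPM in TS and 3.197 in CS).

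*Cd8a* (chromosome 6, 71373427 to 71379173, plus strand) was also lower, at 134 CPM in TS and 311 in CS (log2 ratio −1.21, −1.60 to −0.85), and a UMI was found in 16 of 31 and 282 of 344 cells. After thinning it was found in 9 of 30 TS cells (30.0%, 14.7 to 49.4) and 144 of 344 CS cells (41.9%, 36.6 to 47.3), and these intervals overlap. Within the cDC1 class the log2 ratio was −1.03 (−1.41 to −0.67). *Cd8a* and *Itgae*, both surface markers of cDC1 subsets, thus stood on opposite sides of the comparison.

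Several of the other genes higher in TS were genes of the mature class, whose share was 12.9% in TS and 3.49% in CS. *Lamp1*, a lysosomal membrane protein, was at 251 CPM in TS and 70.0 in CS (free RNA 88.2 and 83.3; log2 ratio 1.85, 1.55 to 2.13), but at 0.27 (−0.37 to 0.85) within the cDC1 class. *Basp1* (1.63), *Samsn1* (1.52) and *Epsti1* (1.20) came to 0.79, 0.72 and 0.42 within the cDC1 class, and stood at 1963, 803 and 2220 CPM in the mature class of CS. Over all cells *Samsn1* was at 60.3 CPM in CS, below free RNA at 64.0. *Gadd45b* (1.09), *Cd83* (1.06) and *Spint2* (1.04) came to 0.46, 0.64 and 0.69. *Actn1*, an actin cross-linker, kept its ratio there (1.06 over all cells and 1.03 in the cDC1 class), as did *Ifitm2* (1.23 and 1.38), an interferon-induced membrane protein whose level, 181 CPM in TS and 77.3 in CS, lay below free RNA at 557 and 827 CPM. The part of class shares and of depth in these ratios was not tested.

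The genes lower in TS kept their direction within the cDC1 class. *Sdf2l1*, an endoplasmic reticulum chaperone component, was at 85.2 CPM in TS and 247 in CS (log2 ratio −1.54, −2.03 to −1.09) and at −1.40 in the cDC1 class, with free RNA at 85.1 CPM in TS. *Ahnak*, a large scaffold protein, was at −1.39 and −1.34, *Flna*, an actin cross-linker, at −1.13 and −1.25 (66.1 CPM in TS, below free RNA at 87.1), and *Kif23*, a kinesin of cell division, at −1.22 and −1.01. *Tmsb10*, which binds actin monomers, was the most abundant of them, at 1604 CPM in TS and 3534 in CS (−1.14, −1.25 to −1.03). *Ece1* and *S100a11* were at −1.02 and −0.99. *Cxcl9* was at 211 CPM in TS and 417 in CS (−0.98, −1.29 to −0.69), and a single TS cell held 73 of the 99 UMIs there, while 232 of 344 CS cells and 10 of 31 TS cells had one.

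**Figure D4:**
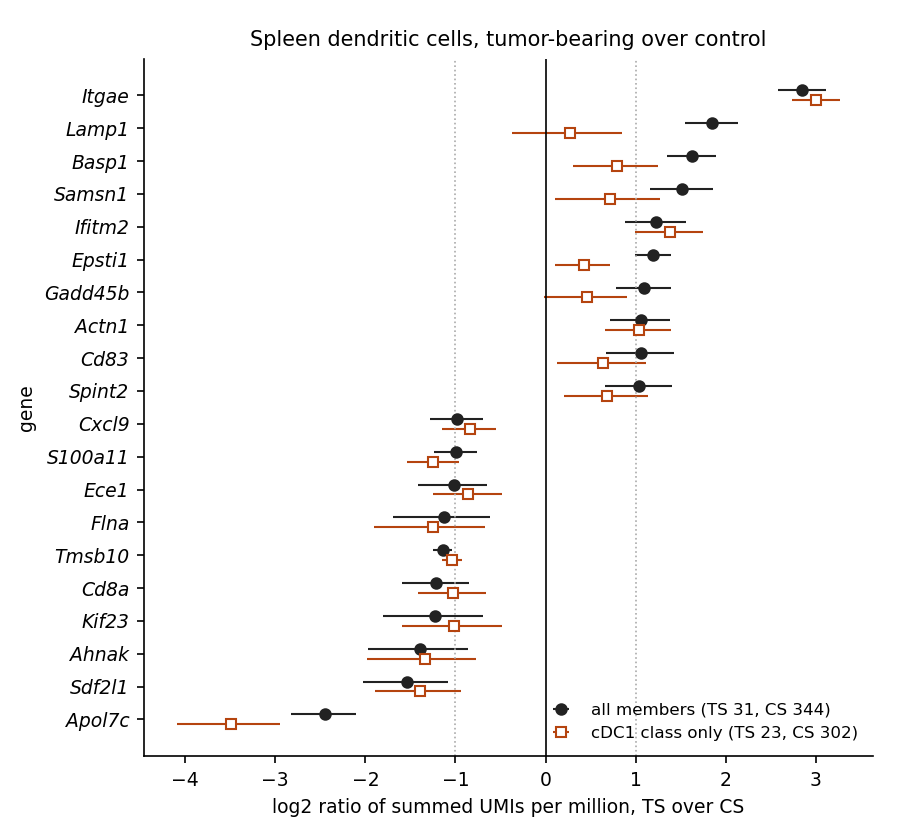
Log2 ratio of TS over CS in dendritic cells for the genes at both ends of the comparison, with 95% counting intervals as bars, over all dendritic cells and within the cDC1 class. *Itgae* at 2.85 and 3.004 and *Apol7c* at −2.45 and −3.49 stand apart in both, while *Lamp1* moves from 1.85 to 0.27.

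The lists of function were read against the shares over all compared genes (1.63% higher and 1.11% lower), at which a count of 0 or 1 in a list of this size is near the background and is no result about the list. Of 10 compared genes of class II loading and the lysosome, 1 was at least 2-fold higher in TS (*Cd83*) and none was 2-fold lower, with a median log2 ratio of 0.09. *Ciita* was at −0.16 (−0.37 to 0.04), *H2-DMa* at 0.16 (−0.02 to 0.33) and *Ctss*, a protease that trims the invariant chain, at 0.24. Of 11 genes of class I presentation none was past 2-fold (median −0.32), and *Psmb9*, an immunoproteasome subunit, was at 482 CPM in TS and 751 in CS (−0.64, −0.84 to −0.45). Of 3 compared costimulation and checkpoint genes *Icosl* was 2-fold higher (1.21, 0.68 to 1.71), but at −0.16 within the cDC1 class, and *Cd86* and *Havcr2* were at −0.17 and 0.04.

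None of the 13 compared transcription factors of dendritic cells was past 2-fold, and their median was 0.00. *Batf3* was at 0.05 (−0.22 to 0.31) and *Id2* at 0.09 (−0.04 to 0.21). *Irf8* was at 1338 CPM in TS and 1968 in CS (−0.56, −0.67 to −0.44). *Mycl*, a factor for cDC1 function, and *Bcl6* were both at −0.76. The 8 compared genes of inflammatory cytokines and NF-kB had a median of 0.40 with none past 2-fold, and *Relb* was at 0.48 (−0.07 to 0.98). Within the cDC1 class this median was −0.13.

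Chemokines and homing receptors were the list with the most genes past 2-fold: 2 of 7 were higher and 2 lower, with a median of −0.58. This median changed sign under most alternatives, to 0.39 within the cDC1 class and to 0.11 with each cell weighted equally. *Ccr2*, a receptor that guides monocytes and their progenitors out of the marrow, was at 19.2 CPM in TS and 90.1 in CS (log2 ratio −2.23, −3.37 to −1.30), with a UMI in 4 of 31 and 128 of 344 cells, and at −2.47 in the cDC1 class. *Ccl5* was at −2.21, with 368 of its 764 CS UMIs in 1 cell. *Cxcl10*, a chemokine induced by interferon, was at 2.58, with all 61 TS UMIs in 1 cell. *Cxcl16* was at 1.02 (0.68 to 1.33), with a UMI in 23 of 31 TS cells and 235 of 344 CS cells, but at 0.39 (−0.10 to 0.84) within the cDC1 class. Both compared markers of the mature class were higher in TS (*Fscn1* 1.95, *Il4i1* 2.40), each with a UMI in 6 TS cells, and 1 TS cell held 23 of the 48 *Fscn1* UMIs. Within the mature class *Fscn1* was alike, at 1590 CPM in CS and 1624 in TS.

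The remaining lists had few genes past 2-fold in the spleen comparison. Of 16 immediate early and dissociation genes none was (median 0.04), of 3 interferon-stimulated genes none was (median −0.31), and of 3 pattern recognition and 5 immunoregulatory and hypoxia genes none was (medians 0.03 and 0.19). Of 6 cytokine receptors none was either (median −0.23). *Kit*, which encodes the receptor on which the CD45+ cells were sorted, was at 167 CPM in CS and 107 in TS (−0.65, −1.09 to −0.25), with a UMI in 309 of 344 and 24 of 31 cells. The other barcodes held 173 and 163 CPM and free RNA 93.2 and 119, so the level in TS lay below free RNA and that in CS above it.

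**Figure D5:**
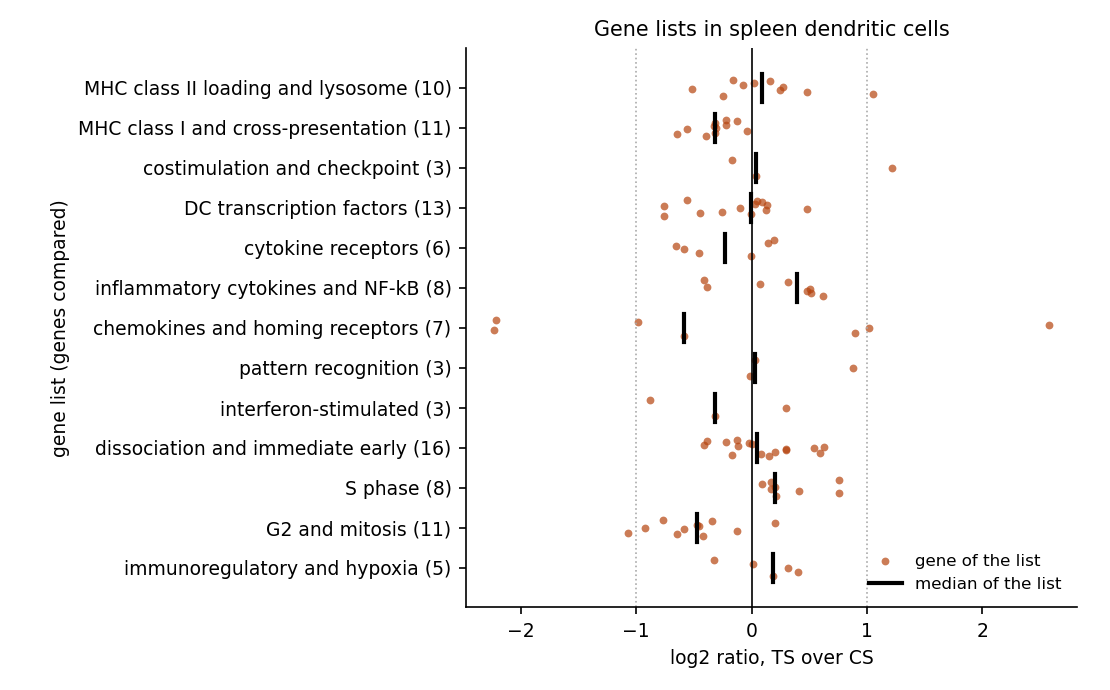
Log2 ratios of TS over CS for the compared genes of each functional list, 1 point per gene, with a bar at the list's median and dotted lines at 2-fold in both directions. Medians lie between −0.58 (chemokines and homing receptors) and 0.40 (inflammatory cytokines and NF-kB), and most points lie within 2-fold.

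Cell division genes were present in part of the spleen dendritic cells. At 2000 UMIs per cell, at least 2 of the 15 G2 and mitosis genes were found in 127 of 344 CS cells (36.9%, 31.8 to 42.3) and 7 of 30 TS cells (23.3%, 9.93 to 42.3), against 57.6% and 70.5% of the other barcodes. The CS and TS intervals overlap. Without thinning they were found in 289 of 344 and 21 of 31 cells. At least 2 S phase genes were found in 86 of 344 and 7 of 30 dendritic cells, against 66.2% and 76.2% of the others. Between the spleens 1 of 11 compared G2 and mitosis genes, *Tpx2*, a spindle assembly factor, was 2-fold lower in TS (46.9 against 98.4 CPM, log2 ratio −1.07, −1.75 to −0.46), the list's median was −0.47, and *Mki67* was at −0.77. None of 8 S phase genes was past 2-fold (median 0.21).

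The comparison of control spleen with control marrow rests on 9 marrow cells, 3 of them monocyte-like, whose 151798 UMIs give wider counting error than the spleen comparison. Of 3110 genes 172 were at least 2-fold higher in CS (5.53%) and 406 lower (13.1%). With scaling by the median of ratios, which moves the median gene by 0.21 on the log2 scale, the lower count becomes 268. With the floor of 3 counts in CBM, *Apol7c* was 38.8-fold higher in CS (lower limit of the log2 ratio 4.98) and *Dnase1l3* 31.1-fold (4.66). On the same floor *Cxcl9* was 21.1-fold higher (4.10) and *Cd8a* 15.7-fold (3.68). *Bcl2a1a*, a survival gene with near-identical copies that share reads, had 1 UMI in CBM (log2 ratio 5.17, 2.70 to 10.5). Of 6 compared cDC1 markers 4 were higher in CS, and of 4 compared monocyte markers all were lower.

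*Ccr2* was at 962 CPM in CBM and 90.1 in CS, and *Fn1*, a matrix protein made by monocyte progenitors, at 112 and 1.51. S phase genes were lower in CS (8 of 9 past 2-fold, median −1.59), as were G2 and mitosis genes (10 of 13, median −1.10). *Irf8* and *Batf3* were at 2022 and 264 CPM in CBM, close to CS. As a sum over cells that include monocyte-like ones, CBM thus held the cDC1 transcription factors, *Ccr2* and division genes, and lacked UMIs of *Cadm1*, *Itgae* and *Cd8a*. Whether the same cells held *Ccr2* and those factors was not tested.

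The comparisons that include TBM rest on 5 cells, none of them assigned to a dendritic class. In TS over TBM, 245 of 3285 genes were at least 2-fold higher (7.46%) and 742 lower (22.6%), or 381 and 459 with scaling by the median of ratios. Counting error alone can put a gene near 50 CPM past 2-fold in so few TBM UMIs, so these are no counts of genes that differ. With the floor of 3 counts in TBM, *Dnase1l3* was 24.8-fold higher in TS (lower limit of the log2 ratio 4.33) and *Itgae* 11.3-fold (3.18). *Ppt1*, a lysosomal thioesterase, was at 1082 CPM in TS and 72.8 in TBM (log2 ratio 3.89, 2.84 to 5.22), *Tbc1d4*, a regulator of vesicle traffic, at 450 and 31.2, on 3 UMIs in TBM (3.85, 2.28 to 6.14), and *Ccl4* at 202 and 10.4, on 1 UMI (4.28, 1.77 to 9.60). Of 7 compared cDC1 markers 6 were higher in TS, and of 15 G2 and mitosis genes all were lower (median −2.49, where the median of all genes was −0.35). The 3 unclassed TBM cells held 29924, 28557 and 22817 of the 96163 UMIs of TBM. Their G2 and mitosis UMIs were 76.5, 167 and 138 per 10000, against 6.38 and 5.69 in the 2 monocyte-like TBM cells.

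In TBM over CBM, 402 of 3379 genes were at least 2-fold higher (11.9%) and 255 lower (7.55%). On 96163 and 151798 UMIs, a gene near the minimum of 50 CPM can pass 2-fold by counting error alone. These are thus no counts of genes that differ. With 5 and 9 cells, no gene could meet the minimum of 10 cells for being named. S phase genes were lower in TBM (7 of 9, median −1.46) and 4 of 15 G2 and mitosis genes higher (median 0.66). The G2 and mitosis UMIs of TBM lay mostly in its 3 unclassed cells. Of 5 compared monocyte markers 1 was at least 2-fold higher in TBM and 1 at least 2-fold lower, with a median of 0.03. *Ccr2* was alike at 1019 and 962 CPM, and *S100a4*, a calcium-binding protein of monocytes, at 614 and 599. Monocyte markers summed to 1882 CPM in TBM and 1871 in CBM, against 283 in CS and 373 in TS, and free RNA held 1841 CPM in TBM and 2018 in CBM, close to the level in the cells. *Ccr2* in free RNA was at 91.5 and 81.2 CPM, far below the cells. The part of these transcripts in the marrow ratios was not tested.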

How the data were processed

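Suspensions from 4 libraries were sequenced as 10x Genomics 3′ gene expression libraries. The authors made the counts with Cell Ranger 4.0 on mm10, per the submitters' processing notes, and deposited the unfiltered matrices of UMI counts per gene and barcode (32285 genes), with no normalization. No column was set aside (0 unused). The library totals were 101811035 (CBM), 135207987 (TBM), 145301019 (CS) and 176094297 (TS) UMIs.

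From the deposited counts, barcodes with at least 1000 genes and at most 10% mt- UMIs were kept, and dendritic cells were chosen by the rule given in the results. The members, the marker lists and the gene lists were chosen with earlier results of these data known. Marker classes used 14 lists of 8 genes. UMIs were summed over the cells of a library and divided by their total (CPM). A gene was compared between libraries at a mean of at least 50 CPM, without the rule's 12 genes. Genes at 0 were set to a floor of 3 counts. Levels have exact Poisson intervals, ratios exact conditional binomial intervals and shares Clopper-Pearson intervals, all at 95%. With 1 library per group no test was run. Shares of cells compared across depths were thinned to 2000 UMIs per cell (cells below it left out).

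Named genes were the 10 highest and 10 lowest log2 ratios of TS over CS and of TBM over CBM, and the 5 at each end of CS over CBM and TS over TBM, with a mean of at least 100 CPM, a UMI in at least 10 cells of the higher library and at most 25% of its UMIs in 1 cell. Mitochondrial, ribosomal protein, hemoglobin, immunoglobulin, T cell receptor, Gm and Rik genes, *Xist* and the rule's genes were left out. No gene could meet this at the lower end of CS over CBM and TS over TBM, since CBM has 9 cells and TBM 5. Genes of the lists were named as well. Coordinates are those of GENCODE M21 (GRCm38), in which 32158 of the gene IDs (99.6%) were found. Of the listed genes 2 (*Clec7a* and *Mx1*) had no row in the tables used here.

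The ratios were also run on counts simulated as independent Poisson draws with known fold changes. Those draws follow the model that the intervals assume and leave out clustering of UMIs within cells. They are thus no check on the spread of the real counts. Python 3.11.15 with numpy 2.4.6, scipy 1.17.1 and pandas 2.3.3 was used.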

Additional observations from a re-analysis of the deposited data

Results flagged for a closer look

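*Tpx2*, a spindle assembly factor, had opposite signs in the comparisons of tumor-bearing and control libraries of the 2 organs. In the cells chosen by the rule its log2 ratio of TS over CS was −1.07 (95% counting interval −1.75 to −0.46), and that of TBM over CBM was 1.04 (0.14 to 1.95). The difference between the organs was not tested, since each group is 1 library. The marrow value rests on 5 TBM and 9 CBM cells, of which 3 and 5 had a UMI, and no TBM cell was assigned to a dendritic class. The G2 and mitosis UMIs of TBM lay mostly in its 3 unclassed cells. In the spleens *Tpx2* was the 1 of 11 compared G2 and mitosis genes past 2-fold, a count near the background. The spleen value was −0.88 (−1.56 to −0.27) within the cDC1 class, short of 2-fold. It turned to 0.52 among the cells with no *Kit* UMI, which leaves 7 in TS and 35 in CS.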

How the results depend on the processing

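The depth of single cells limits the shares and the 5 and 9 marrow cells limit every marrow ratio. Each alternative changed 1 choice, and most values stayed within the counting interval. For counts of genes the limit was 1.5 times. For list medians it was the median over their genes of (upper minus lower limit)/2. Values stayed within these limits for 17 of 20 shares of dendritic cells, 24 of 32 class shares and 50 of 78 counts of genes past 2-fold. So did 136 of 154 list medians and 383 of 454 values of single genes. Of the values of single genes 69 moved further, and 2 that were past 2-fold turned direction. Changes of sign in values within 2-fold were not counted as turned. The cause was not tested where none is given. No paired analysis was possible because each group is 1 library and all carry the number 1, so leaving out a replicate was not possible either.

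Thinning to 2000 UMIs left shares of dendritic cells of 4.58% in CS and 0.368% in TS, and of 0.0288% (CBM) and 0.0698% (TBM) in marrow, where the order reversed. The cDC1 class then took 0% of CBM, 50.6% of CS and 53.3% of TS cells, no class 77.8%, 43.9% and 30.0%, and the monocyte class 0% of TS. The monocyte class of TS was also 0% with at least 4 markers required.

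The genes past 2-fold in TS over CS were 91 higher of 2972 compared with each cell weighted equally, and 31 of 2862 with at least 3 dendritic genes required. Among cells with no *Kit* UMI they were 358 higher and 237 lower of 3004. They were 54 lower of 2920 with 10% of the UMIs subtracted by the profile of free RNA. Within the cDC1 class, an alternative chosen after seeing the data, they were 26 higher of 2849. With a minimum of 20 CPM they were 160 higher and 129 lower of 5666, and with 100 CPM 21 and 9 of 1393. The main comparison had 2888 genes. The number of genes compared changes with the minimum, which by itself moves these counts. In TBM over CBM they were 1126 higher and 698 lower of 6177 at 20 CPM, and 122 and 88 of 1721 at 100 CPM. Without *Kit* UMIs they were 754 higher of 3345. In CS over CBM they were 513 and 927 of 5883, 64 and 174 of 1521, and 321 and 775 of 3261 in the same 3 settings. With scaling by the median of ratios they were 268 lower of 3110. In TS over TBM they were 594 and 1568 of 6066 at 20 CPM, 102 and 292 of 1589 at 100 CPM, and 381 and 459 of 3285 with that scaling.

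Among list medians of TS over CS, chemokines and homing receptors came to 0.11 with equal weights, 0.017 at 100 CPM, 0.013 with 3 dendritic genes, 0.15 with at least 50 class II UMIs per 10000, 0.23 without the deepest 5% of cells, 0.97 with only the 4 dendritic classes, 0.13 without *Kit* UMIs and 0.39 in the cDC1 class. Costimulation came to 0.57 with equal weights, and NF-kB to −0.073 with 3 dendritic genes and −0.13 in the cDC1 class. Without *Kit* UMIs the medians were 0.25 for cDC1 markers, 0.56 for class II, −0.086 for class I, 0.62 for costimulation, −0.24 for immediate early, −0.34 for S phase and −1.94 for G2 and mitosis genes. *Tpx2* turned to 0.52 without *Kit* UMIs and *Icosl* to −0.16 in the cDC1 class. TBM over CBM and TS over TBM were not run with only the 4 dendritic classes, since no TBM cell was left.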

Other observations

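At 2000 UMIs per cell, at least 2 interferon-stimulated genes were found in 55.2% of the CS dendritic cells (49.8 to 60.6) and 33.2% of the other CS barcodes. In TS they were found in 8 of 30 dendritic cells (26.7%, 12.3 to 45.9) and 1285 of 5137 others, and the intervals of CS and TS do not overlap. Within the cDC1 class they do overlap, at 57.9% (52.2 to 63.6) in CS and 7 of 22 cells (31.8%, 13.9 to 54.9) in TS. In marrow they were found in 5 of 9 cells of CBM (28.9% of the others) and 4 of 5 of TBM (24.5% of the others). Without thinning they were found in 332 of 344 dendritic cells of CS and 29 of 31 of TS.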
